A study of Anopheles gambiae with 5 samples.

Results

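The regions described here are 375 of the 6639 H3K27ac peaks (5.65%) called in the midgut of the mosquito Anopheles gambiae. Each is a peak shorter than 6000 bp that touched, by at least 1 bp, an assembled transcript of class u, and shared no base with an annotated gene or the 200 bp on either side of one. Class u is the code that the program CuffCompare gives to a transcript lying between the annotated genes. A transcript was taken from its first to its last base, introns included, and 366 of the 375 peaks touched an exon of one. The annotated genes were the 13102 genes carried by assembled transcripts of the classes "=" (the intron chain of a known transcript), "j" (a shared splice junction) and "o" (another overlap on the same strand). The length limit and the absence of genes were set by this choice and are not results.

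Acetylation of lysine 27 of histone H3 (H3K27ac) is laid down by CBP/p300 acetyltransferases and is found at active promoters and active enhancers in insects as in mammals. Trimethylation of the same residue (H3K27me3) is the mark of Polycomb repression, and a single histone tail cannot carry both. Acetylated chromatin outside known genes can mark the start of a gene that the annotation lacks, a distant part of a known gene or an enhancer, and enhancers are themselves often transcribed. The midgut is the tissue through which the malaria parasite enters the mosquito, and its lining is largely made of enterocytes that digest the blood meal.

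All material came from females of the Kisumu strain of A. gambiae aged 6 to 8 days. Chromatin of pooled midguts gave 1 library precipitated for H3K27ac, 1 precipitated for H3K27me3 and 1 input library against which both were called, and RNA gave 1 library from pooled midguts and 1 from pooled salivary glands. The transcripts join both tissues in a single set, so a transcript under a midgut peak may have been assembled from salivary gland reads. No group has a replicate. No test was therefore made between samples, and the 95% intervals given (Wilson for shares, order statistics for medians) cover only the counting of peaks.

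Of the 6218 H3K27ac peaks under 6000 bp, 1118 touched a class u transcript, and 743 of these were set aside because they also touched an annotated gene. The 375 that remained covered 794483 bp. The number rested on how genes were drawn: with genes limited to class "=" transcripts 987 peaks met the rule, and with class u transcripts limited to those of more than 1 exon 98 did. Another 14 peaks met the rule in all but length. The longest peaks inside the limit, in the AgamP4 assembly with positions counted from 1, measured 5943 bp (3R from 10306135 to 10312077, score 1504) and 5790 bp (3L from 22509705 to 22515494, score 963). The first beyond it measured 6053 bp (3L from 28872254 to 28878306, score 1117) and 6242 bp (3L from 16740273 to 16746514, score 2607). As to the label, 8 of the 375 peaks also touched a transcript of class x, which lies antisense to annotated exons, and the other 367 touched no assembled transcript outside class u.

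Other H3K27ac peaks under 6000 bp, in 3 classes, serve for comparison. Promoter peaks (3585) touched the 200 bp on either side of an annotated start, gene peaks away from promoters (1890) touched a gene elsewhere, and 364 peaks lay outside every assembled transcript. Each peak has a MACS score, which is on one scale within the H3K27ac list and grows as the p-value of the peak against input shrinks. It measures significance, which depends on the reads in the peak, and not fold enrichment.

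Over all lengths, peaks on class u transcripts had intermediate scores. Their median score was 194 (95% interval 167 to 215), with quartiles of 94.8 and 439 and a range of 50.1 to 3100. Promoter peaks had a median of 290 (272 to 302), gene peaks away from promoters 157 (149 to 169), and peaks outside every transcript 121 (109 to 148). The interval of the peaks on class u transcripts thus met none of the others except that of gene peaks away from promoters, with which it shared its lower end. A score of 1000 or more was reached by 27 of the 375 (7.20%, 5.0 to 10.3%), against 15.1% of promoter peaks and 4.95% of peaks outside every transcript. Among all H3K27ac peaks 152 of the 375 (40.5%) stood at or above the median, and 13 reached 1316, the 90th percentile.

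Length and score moved together. The median length of the peaks on class u transcripts was 1824 bp (1676 to 1980), against 1944 bp in the other peaks under the limit and 1524 bp in the peaks outside every transcript. Spearman's rho between score and length was 0.56 over the 375 peaks and 0.68 over the 5843 other peaks, a description over peaks of a single library. Among peaks under 1000 bp the median score was 98.9 on class u transcripts (n = 46), above the 76.8 of promoter peaks, but the intervals overlapped (72.6 to 134 and 72.9 to 81.9). From 1000 to 2000 bp it was 138 on class u transcripts, against 179 at promoters, and from 2000 to 3000 bp it was 234, against 399. In these length classes the intervals did not overlap. From 3000 to 6000 bp the medians were 717 on class u transcripts and 867 at promoters, and their intervals overlapped. Against peaks outside every transcript, the medians in the 4 length classes were 98.9 and 68.1, 138 and 109, 234 and 245, and 717 and 497, and the intervals overlapped in each. The gap of 194 to 121 was thus not separated at like length.

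**Figure D1:**
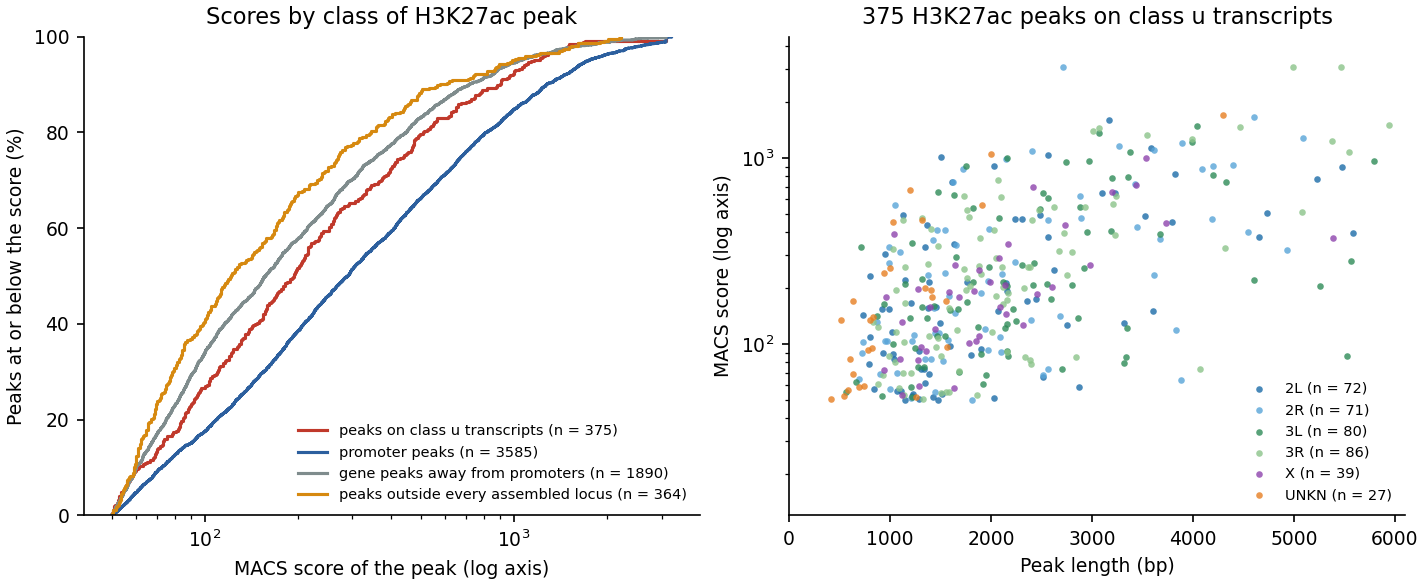
MACS scores of H3K27ac peaks: the left panel gives, for each class of peak, the percentage of peaks at or below each score (log axis), and the right panel gives score (log axis) against length in bp for the 375 peaks on class u transcripts, 1 point a peak, coloured by chromosome. The curve of the peaks on class u transcripts (median 194) lies between those of promoter peaks (290) and of peaks outside every assembled locus (121), and the points rise with length.

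The highest-scoring peaks show what these regions look like. A score of 3100 was shared by 3 of them, as by 93 peaks of the whole list, and 13 peaks passed it, so the 3 cannot be ranked. The first lay on 3R from 34868059 to 34873524 (5466 bp) and touched 4 class u loci of the minus strand. Their spans, introns included, covered 97.9% of the peak. Among these is a transcript of 2 exons whose 5′ end fell in the peak, which spans 10709 bp and has 1148 bp of exons. The nearest annotated gene, AGAP009502, was 61438 bp away and carried H3K27me3 and no H3K27ac. An H3K27me3 island lay 1877 bp from the peak and another H3K27ac peak 157 bp from it.

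The other peaks at this score stood nearer to genes. The peak on 3R from 38359071 to 38364064 (4994 bp) held the 5′ ends of class u transcripts of both strands pointing away from each other, a divergent arrangement, and lay 10232 bp upstream of AGAP009678. The peak on 2R from 50639818 to 50642530 was only 2713 bp long and covered a single-exon transcript of 1924 bp on the minus strand, as well as the 5′ end of a plus-strand transcript. Its neighbour AGAP004136, 2681 bp away, carried H3K27ac at a promoter.

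Below these, the highest-scoring peak stood on sequence not placed on any chromosome (UNKN), from 21759315 to 21763609, with a score of 1699. It covered the 5′ end of a minus-strand transcript of 6 exons, which spans 7343 bp and has 5292 bp of exons. The nearest gene, AGAP012631, was 13006 bp away. The peak on 2R from 39246013 to 39250613 (score 1670) lay 419 bp upstream of AGAP003537, a minus-strand gene with H3K27ac at a promoter, and held a short class u transcript of 582 bp on the opposite strand. The peak on 2L from 37478734 to 37481898 (score 1607) likewise held a short transcript, of 610 bp, which covered 19.3% of it. A peak on 3L from 10082231 to 10086273 (score 1497) held the 5′ end of an unspliced transcript of 7779 bp. Of the 10 highest-scoring peaks all held a 5′ end of a class u transcript, against 73.3% of the 375. In 8 the nearest annotated gene carried H3K27ac, against 59.5% of the 375 and 38.9% of all annotated genes. The exceptions are the first peak above and the peak on 3R from 6551737 to 6554809 (score 1453), whose neighbour AGAP008192, only 563 bp away, carried neither mark.

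**Figure D2:**
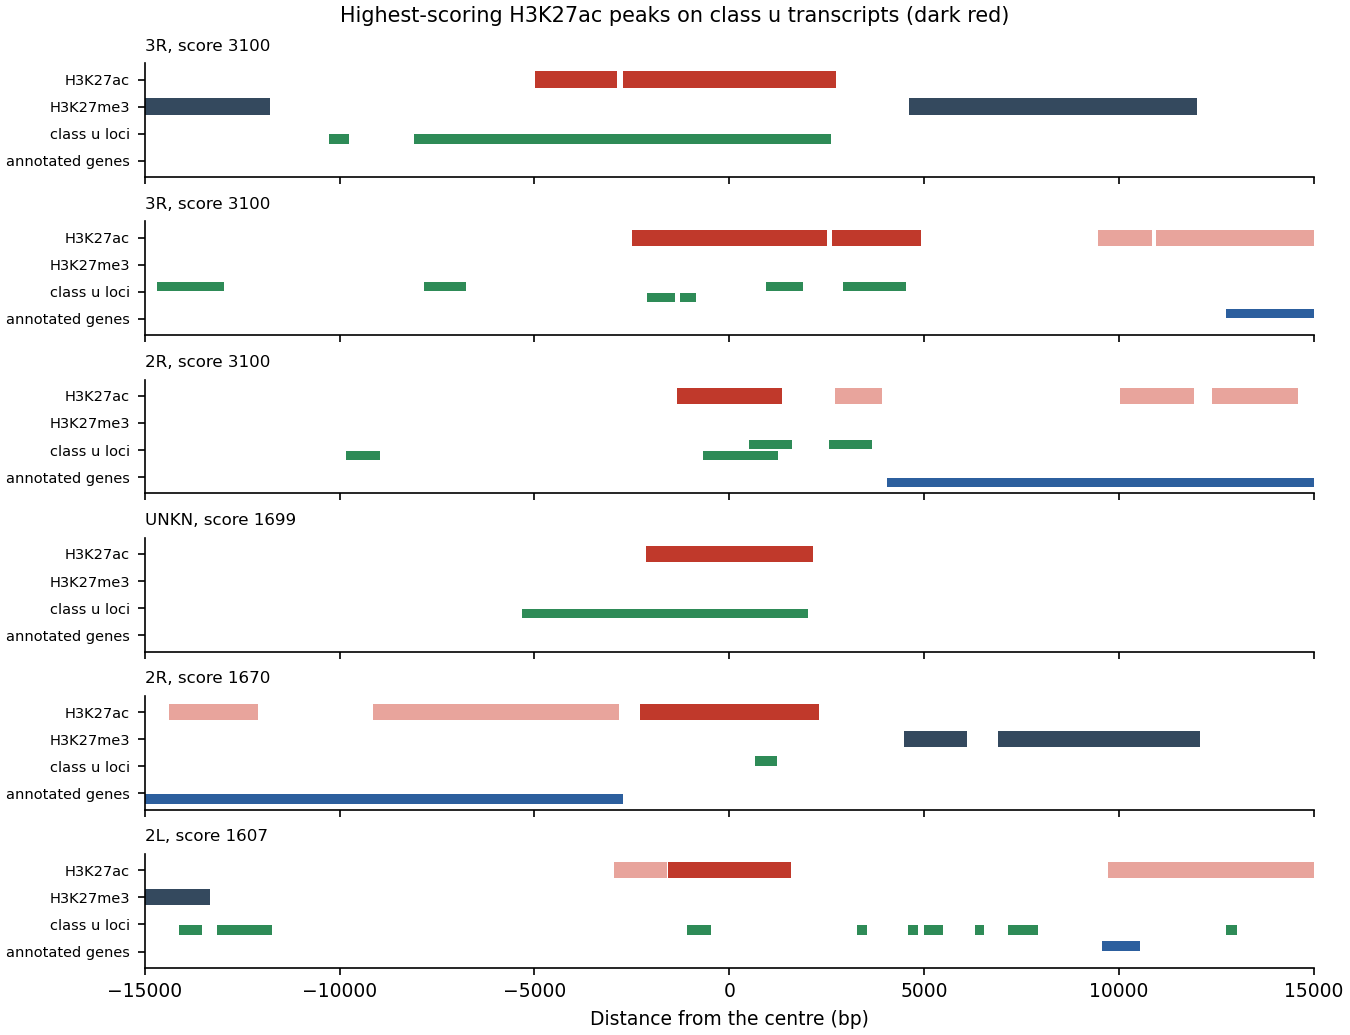
The 6 highest-scoring H3K27ac peaks on class u transcripts, each in a window of 15000 bp on either side of its centre: H3K27ac peaks on class u transcripts in dark red, other H3K27ac peaks in light red, H3K27me3 islands in dark blue, class u loci in green and annotated genes in blue, with plus-strand features drawn above minus-strand ones. Each peak holds the 5′ end of at least 1 class u transcript, and H3K27me3 islands stand in 3 of the 6 windows without touching the peak.

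Most of the peaks held the 5′ end of an assembled transcript. Such an end is the edge of the assembly, and whether transcription starts there was not tested. Of the 375, 275 (73.3%, 68.6 to 77.6%) held the 5′ end of at least 1 class u transcript and 218 (58.1%, 53.1 to 63.0%) held a 3′ end. Of the 98 peaks that touched a spliced class u transcript, 67.3% held a 5′ end of any class u transcript, but only 43.9% (34.5 to 53.7%) that of a spliced one. The transcript that shared most bases with each peak, introns counted, is called the lead transcript here. Of the peaks, 108 (28.8%) held the whole lead transcript, 130 (34.7%) its 5′ end alone, 57 (15.2%) its 3′ end alone, and 79 (21.1%) lay within it. The lead transcript of 1 peak had no strand. Scores followed the same order, with medians of 279, 210, 154 and 131. The 79 peaks within their transcript lay on long ones, with a median span of 8041 bp, against 859 bp for the transcripts held whole.

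Whether an end is held depends on how long the transcript is, so peaks on class u transcripts were set beside the 5433 peaks on annotated genes by span. In all, 238 of 374 peaks on class u transcripts (63.6%) held the 5′ end of the lead transcript, against 47.7% of gene peaks. Within the classes of span from 500 to 5000 bp the order turned round. For spans of 500 to 1000 bp the share was 75.3% on class u transcripts (65.4 to 83.1%) and 95.8% on genes (91.1 to 98.0%). For spans of 1000 to 2000 bp the share was 75% on class u transcripts (65.9 to 82.3%) and 89.3% on genes (86.5 to 91.6%), and for 2000 to 5000 bp it was 53.5% (42.0 to 64.6%) and 80.7% (78.0 to 83.1%). From 5000 bp upwards the shares were 35.3% and 31.3%, with overlapping intervals. The 3′ end was held in 51.9% on class u transcripts against 34.0% on genes for 1000 to 2000 bp, and in 28.2% against 12.9% for 2000 to 5000 bp, with intervals that did not overlap. At spans of 500 to 5000 bp the peaks on class u transcripts thus held the 5′ end less often than gene peaks, although they did so more often over all spans.

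The peaks were then placed relative to the 5′ end of the lead transcript. The midpoint of the peak lay a median of 681 bp downstream of the 5′ end (592 to 792), and on the transcribed side in 310 of 374 peaks (82.9%). This side is largely set by the choice of peaks, which must overlap the transcript, and is a description. At the 5′ end itself 73.5% of lead transcripts were inside an H3K27ac peak, against 77.1% of the starts of acetylated annotated genes. At 500 bp downstream the shares were 81.6% and 83.1%, and at 1000 bp downstream they were 66.6% and 67.2%. Upstream the profiles parted: 45.5% against 32.9% at 500 bp, 37.2% against 24.5% at 1000 bp, and 31.0% against 19.2% at 2000 bp. Positions ahead of the class u transcripts were thus more often acetylated than positions ahead of annotated genes. At the downstream edge of the window, at 5000 bp, the shares also differed, at 26.7% and 21.8%. Both sets were chosen for the presence of a peak, so the heights are a description.

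**Figure D3:**
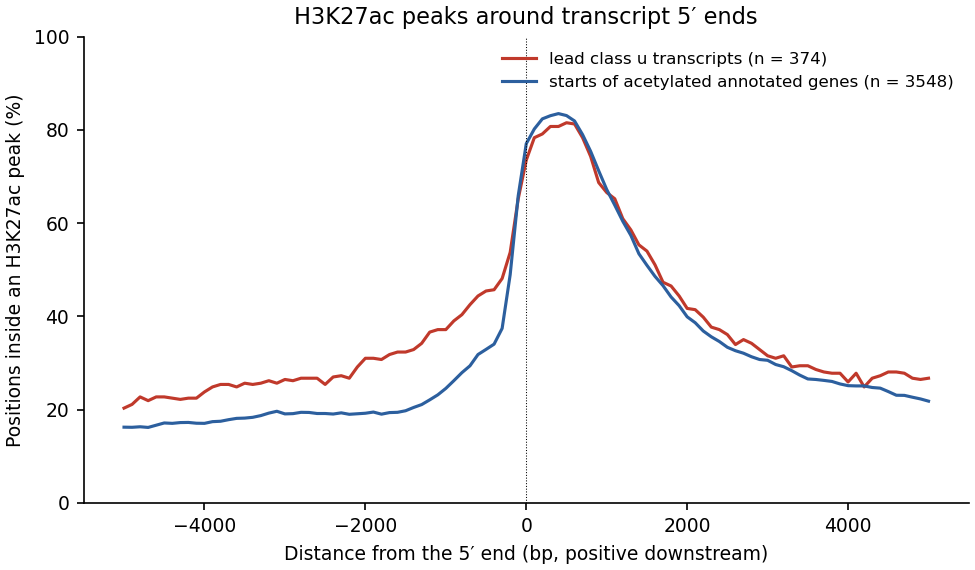
Percentage of 5′ ends with an H3K27ac peak at each distance (bp, positive in the direction of transcription) for the lead class u transcripts of 374 peaks (counted once for each peak they lead) and for 3548 different starts of the annotated transcripts that share most bases with a gene peak. The curves lie close together at 1000 bp downstream, at 66.6% and 67.2%, and separate upstream, at 45.5% and 32.9% at 500 bp. At 5000 bp downstream they stand at 26.7% and 21.8%.

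Higher-scoring peaks held a 5′ end more often. Of the 76 peaks with a score of 500 or more, 68 (89.5%, 80.6 to 94.6%) held one, of the 199 with a score of 100 to 500, 155 (77.9%, 71.6 to 83.1%), and of the 100 below 100, 52 (52.0%, 42.3 to 61.5%). The higher-scoring peaks were also longer, with median lengths of 3180, 1794 and 1318 bp. At like length the difference was largest in the short peaks: under 1000 bp, 17 of the 23 peaks in the upper part of the scores held a 5′ end and 6 of the 23 in the lower part. From 3000 bp upwards the shares were 88.9% and 88.6%.

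Most peaks lay on a single locus. Of the 375, 256 touched 1 class u locus, 93 touched 2, 17 touched 3, 6 touched 4 and 3 touched 5. Median scores were 168, 202 and 468 for 1, 2 and 3 loci, with wide intervals in the last group (209 to 768). In the peaks with 5 loci the transcripts lay in close succession. On 3R from 15497738 to 15501726 (score 1262), 5 unspliced transcripts of 506 to 745 bp followed one another on the plus strand. On 3R from 30692791 to 30698336 (score 1079) and on 3L from 21262350 to 21267609 (score 206), 4 unspliced transcripts lay inside the span of a longer transcript of 2 exons on the same strand, of 36266 bp and 47734 bp.

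Lead transcripts were on the plus strand for 195 peaks and on the minus strand for 179. In 29 peaks (7.73%) class u transcripts lay on both strands, in 21 (5.60%) the peak held 5′ ends of both, and in 9 (2.40%) transcripts of both strands pointed away from each other without sharing a base, as at bidirectional promoters and transcribed enhancers. The 9 divergent peaks had a median score of 396 (174 to 1229) and a median length of 3378 bp, against 190 and 1798 bp in the other 366. Longer peaks have more room for another 5′ end, and the part of length in this difference was not tested.

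The transcripts under the peaks were longer and more often spliced than those of class u loci without H3K27ac. The 375 peaks touched 476 of the 13969 class u loci (3.41%), where H3K27ac peaks of any kind touched 13.0% of them. The loci had a median span of 1101 bp, against 779 bp in the 12159 loci without H3K27ac. More than 1 exon was found in 72 of the 476 (15.1%, 12.2 to 18.6%), against 2.98% (2.69 to 3.29%) of the loci without H3K27ac. Seen from the transcripts, the 375 peaks touched 72 of 516 spliced class u loci (14.0%, 11.2 to 17.2%) and 404 of 13453 unspliced ones (3.0%, 2.73 to 3.31%).

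Long loci offer more bases to be touched, so the loci were also compared by span. Among loci of 1000 to 2000 bp the peaks touched 4.30% of spliced and 3.82% of unspliced loci, and of 2000 to 5000 bp 12% (7.41 to 18.9%) and 5.67% (4.42 to 7.24%). From 5000 bp upwards they touched 49 of 221 spliced loci (22.2%, 17.2 to 28.1%) and 16 of 151 unspliced loci (10.6%, 6.63 to 16.5%). The intervals did not overlap in the longer 2 classes. The class from 5000 bp upwards has no upper limit, so the spans of spliced and unspliced loci were not matched within it. H3K27ac peaks of any kind showed the same order, at 27.2% of spliced and 14.8% of unspliced loci of 2000 to 5000 bp and 40.7% and 21.9% of those from 5000 bp upwards. The peaks on a spliced transcript, 98 in number, had scores like the 277 on unspliced transcripts alone, with medians of 205 (156 to 251) and 182 (157 to 216).

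The transcripts with most exons carried peaks of very unequal score. After the 6-exon transcript on UNKN described above, a transcript of 6 exons and 32010 bp on 3L held a peak inside it, from 3139912 to 3142827, with a score of 257. A transcript of 5 exons and 39512 bp on 3R, on the same strand as AGAP008822 and beyond its 3′ end, met 2 of the peaks. The one over its 5′ end, from 18567341 to 18569813, had a score of 526, and the one inside it, from 18571589 to 18573140, had 55.2. A minus-strand 3R locus with isoforms of 4 and 5 exons had only a low-scoring peak, from 49025003 to 49026209, with a score of 70.3. Its midpoint lay 27432 bp downstream of the 5′ end of the 4-exon isoform, which spans 130781 bp. The 5-exon isoform, from 48962329 to 49027131, has its 5′ end much nearer to the peak but outside it.

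Annotated genes near the peaks were often acetylated themselves. The nearest gene carried H3K27ac for 223 of the 375 (59.5%, 54.4 to 64.3%), while 38.9% of all annotated genes did, and at a promoter for 203 (54.1%), while 33.7% of all genes did. For the H3K27ac peaks outside every transcript the share was 58.5% (53.4 to 63.5%), an interval that overlapped that of the peaks on class u transcripts. Class u loci without H3K27ac, and over 200 bp from genes, had an acetylated nearest gene in 24.2% of 7627 cases. The 375 peaks had 272 different nearest genes, of which 142 were acetylated, so that peaks sharing a gene are not independent.

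The gap to the class u loci without acetylation was seen at each distance up to 50000 bp. The peaks lay a median of 5874 bp (4841 to 7554) from the nearest gene, the peaks outside every transcript 4380 bp, and the class u loci without H3K27ac 12267 bp. The distance of the peaks was 11272 bp where gene spans were taken from class "=" alone, and 9680 bp for the 98 peaks on spliced transcripts. Under 1000 bp the nearest gene was acetylated for 31 of 50 peaks (62.0%), against 30.4% of class u loci without H3K27ac, and from 1000 to 2000 bp for 29 of 38 (76.3%), against 35.6%. From 2000 to 5000 bp the shares were 69.9% and 28.7%, from 5000 to 10000 bp 64.9% and 26.2%, and from 10000 to 50000 bp 51.1% and 22.9%. In each of these classes the lower bound of the interval for the peaks was above the share for the loci without H3K27ac. Of the 16 peaks at 50000 bp or more, 1 had an acetylated nearest gene. Peaks with a score of 500 or more had an acetylated neighbour in 71.1% of cases (60.0 to 80.0%), and those under 100 in 48% (38.5 to 57.7%).

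**Figure D4:**
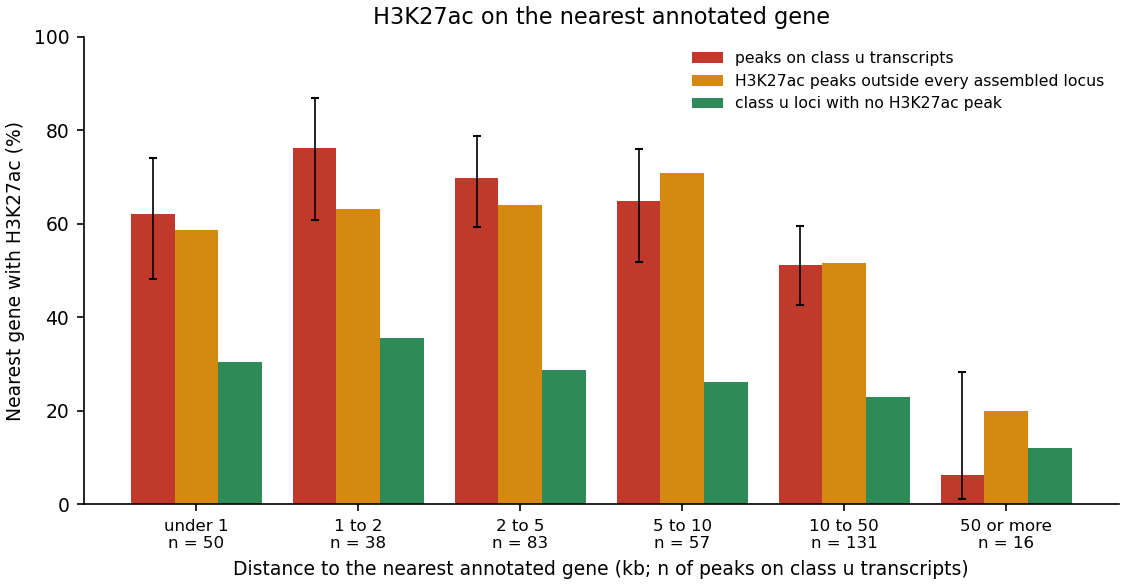
Percentage of nearest annotated genes that carry H3K27ac, by distance to the gene in kb, for the 375 peaks on class u transcripts (red, with 95% Wilson intervals and n below), the 364 H3K27ac peaks outside every assembled locus (orange) and the 7627 class u loci without H3K27ac (green). The red and orange bars stay close to each other and above the green ones up to 50 kb, and in the last class 1 of 16 peaks has an acetylated neighbour.

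Taken over all distances, the transcripts lay beside these genes much as other class u transcripts did. The lead transcript lay upstream of the nearest gene on the same strand for 136 of 374 peaks (36.4%), upstream on the opposite strand for 89 (23.8%), downstream on the same strand for 101 (27.0%) and downstream on the opposite strand for 48 (12.8%). The class u loci without H3K27ac gave 35.5%, 20.7%, 27.5% and 16.3%, each within the interval of the peaks. Within 1000 bp of a gene the counts were 17, 19, 10 and 4 of 50. The loci without H3K27ac were not set beside them at this distance. The genes most often acetylated were those with the transcript downstream on the same strand (66 of 101, 65.3%) and the least often those with it downstream on the opposite strand (22 of 48, 45.8%), with overlapping intervals (55.7 to 73.9% and 32.6 to 59.7%).

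At the other extreme, the peaks farthest from any gene mostly had low scores. On UNKN a peak from 13217015 to 13218272 lay 170318 bp from a gene and had a score of 52.2, and one from 15471091 to 15471719 lay 105095 bp away with 69.4. A pair of peaks on 3L, 48 bp apart, lay 97952 and 100244 bp from AGAP011528: the one from 26758175 to 26760419 had a score of 133 and the one from 26760467 to 26761940 a score of 660. Each of the pair held the 5′ end of its own minus-strand transcript. AGAP011528 carried H3K27me3 and no H3K27ac.

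The share of peaks with H3K27me3 nearby lay between those of the other classes of H3K27ac peak. Within 5000 bp of an H3K27me3 island, the broad region that SICER calls by joining enriched windows, were 76 of the 375 (20.3%, 16.5 to 24.6%), against 22.9% of the other peaks under 6000 bp. The share was 13.5% (12.1 to 15.2%) in gene peaks away from promoters, 26.5% (25.1 to 28.0%) in promoter peaks and 35.7% (31.0 to 40.8%) in peaks outside every transcript, and none of these intervals met that of the peaks on class u transcripts. The median distance to an island was 17563 bp (15449 to 20825) for the peaks on class u transcripts and 14066 bp (13547 to 14560) for the other peaks. The nearest gene carried H3K27me3 for 93 of the 375 (24.8%, 20.7 to 29.4%), while 29.7% of all annotated genes did. Class u loci under the peaks touched H3K27me3 in 21 of 476 cases (4.41%), against 26.6% of the loci without H3K27ac.

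Only 5 of the 375 peaks (1.33%, 0.571 to 3.08%) shared bases with an island, against 2.29% of the other peaks and 7.14% (4.92 to 10.3%) of those outside every transcript. The chromatin came from whole midguts, so it cannot be told apart whether the 2 marks lay on the same chromosomes or in different cells. The longest overlap was 793 bp, on 2L from 11947807 to 11950316, in a peak of low score (66.4) that lay 96517 bp from a gene. On X, 523 bp were shared by the peak from 10625677 to 10627311 (score 58.2) and 235 bp by the divergent peak from 8167765 to 8173155 (score 374). On 3L, 116 bp were shared by the peak from 40866484 to 40868642 (score 204).

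The last of the 5 had the highest score. No other peak of the 375 had a nearest gene among the 66 with an identifier in the table of candidate genes of the study. The candidates are few beside the 13102 annotated genes, and the 375 peaks had only 272 different nearest genes. Whether candidates were met more or less often than other genes was not tested, and the match is a description. The peak lay on 3L from 38922590 to 38924750 (2161 bp, score 999) and shared 150 bp with an island. It stood 9711 bp beyond the 3′ side of EcR (AGAP012211, 38740806 to 38912879 on the plus strand), the gene of the ecdysone receptor, a nuclear receptor that with its partner USP answers the moulting hormone and in adult mosquito females takes part in the response to a blood meal. EcR itself carried both marks, with H3K27ac at a promoter. Beneath the peak, an unspliced plus-strand transcript of 1903 bp and a minus-strand transcript of 552 bp both began at position 38923382, and as they share that base the peak is not among the 9 divergent ones. The plus-strand one runs away from EcR and the minus-strand one toward it. Another H3K27ac peak was 11 bp away.

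The distance from the peaks to other acetylated chromatin varied widely. The median distance to the next H3K27ac peak was 1340 bp (934 to 1865), against 1717 bp (1595 to 1845) for the other peaks under the limit, with overlapping intervals. It was 851 bp (722 to 953) for gene peaks away from promoters and 1468 bp (1222 to 1865) for peaks outside every transcript. Within 100 bp of another peak were 58 (15.5%, 12.2 to 19.5%), against 11.3% of the other peaks. The spread was wide, since 69 of the 375 (18.4%, 14.8 to 22.6%) were more than 20000 bp from any other peak, against 9.74% of the other peaks. Within 5000 bp of another peak on class u transcripts were 161 (42.9%). With gaps of up to 20000 bp, 24 runs of 3 or more were formed and held 111 of the 375. Neither count is given for other classes of peak, so neither is shown to be particular to peaks on class u transcripts.

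A run on 2L from 35584046 to 35607208 spanned 23163 bp. Its peaks on class u transcripts covered 79.4% of it, the largest such share among the runs of 6 or more. It held 6 H3K27ac peaks in all. Its 6 peaks all touched the class u locus that met the most of them, a minus-strand locus of 2 exons from 35584165 to 35609266. Their scores along the chromosome were 214, 902, 379, 150, 50.9 and 54.2, so the highest lay toward the 3′ end of that locus and the lowest at its 5′ side. The nearest gene, AGAP006644, lay 1219 bp away on the same strand and was acetylated.

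On 2R, 8 peaks covered 60.0% of the 30067 bp from 30181034 to 30211100. This stretch held 12 H3K27ac peaks in all, and only the 8 on class u transcripts are counted in that share. All 9 class u loci in it were on the plus strand, the longest of 6671 bp, and no H3K27me3 fell in it. The scores were 104, 68.9, 989, 1289, 474, 234, 362 and 1158, and 7 of the 8 peaks held a 5′ end. AGAP013267, also on the plus strand, lay 1805 bp away and was acetylated.

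Of the other 4 runs of 6 or more, 3 held H3K27me3 as well. On 2R from 36052848 to 36090469, 8 peaks lay among 21 class u loci, with 2799 bp of H3K27me3 between them, and the nearest gene, AGAP003329, was 17573 bp away and not acetylated. On 3R from 27432363 to 27493067, 8 peaks lay among 30 loci with 8998 bp of H3K27me3, and the scores ran from 68.1 to 1479. This last run ended 309 bp before AGAP009144, an acetylated gene on the plus strand, on which strand 26 of the 30 loci lay. The 8 peaks on 3R from 44755226 to 44794305 enclosed a gene, AGAP009889, and had scores of 82.4 to 1401, with 799 bp of H3K27me3. The run of 7 on 3R from 15462425 to 15512675 lay among 30 class u loci and held no H3K27me3. H3K27ac peaks of any kind numbered 11 in the run around AGAP009889 and 10 in the run of 7.

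**Figure D5:**
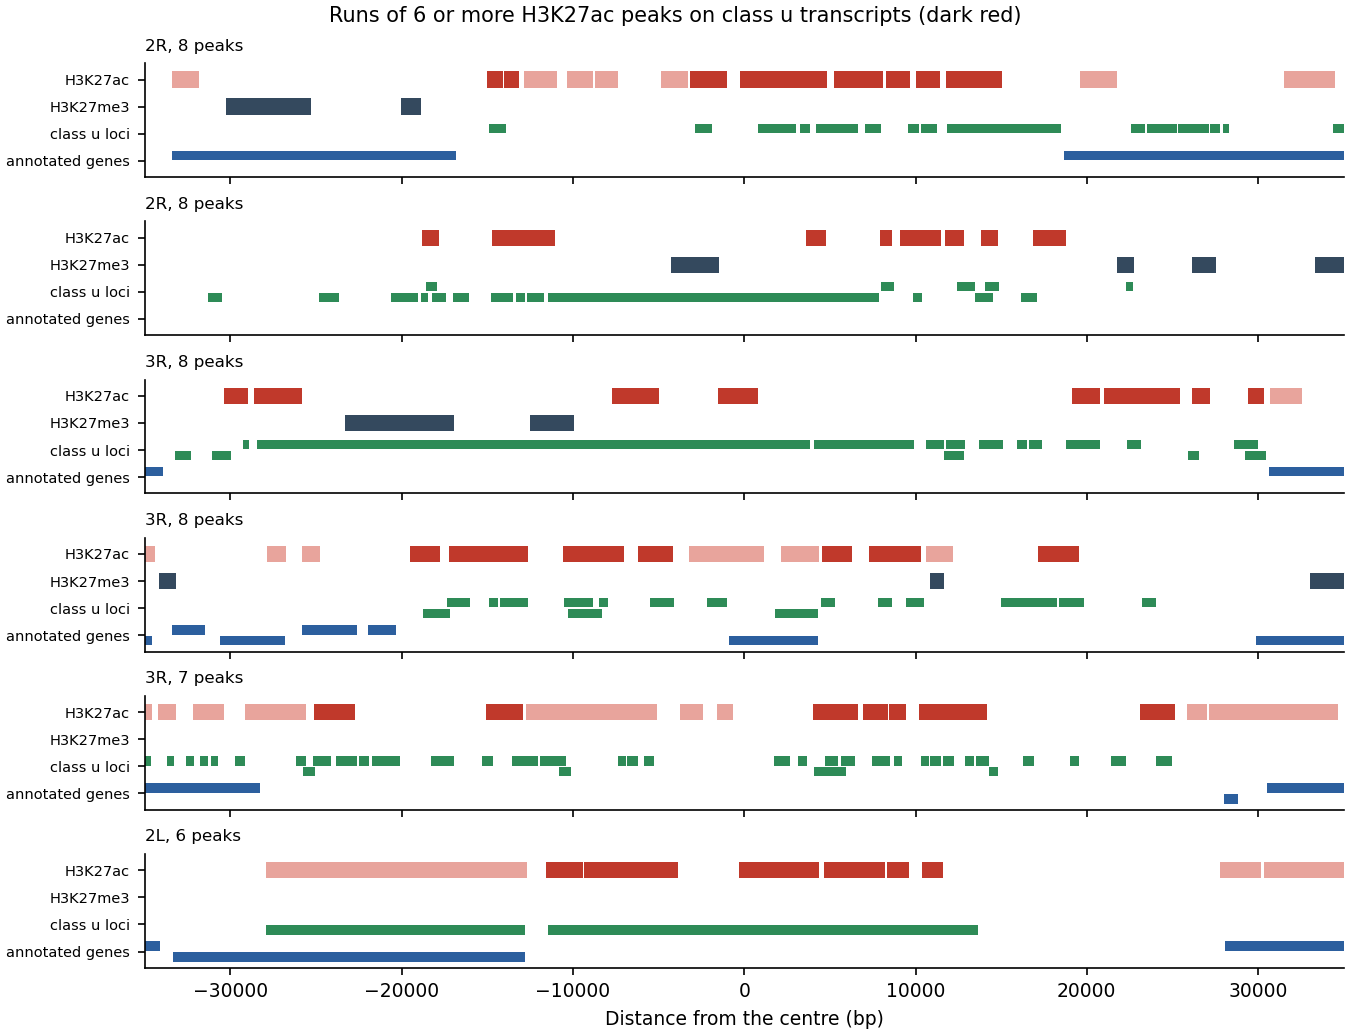
Runs of 6 or more H3K27ac peaks on class u transcripts with gaps of at most 20000 bp, each in a window of 35000 bp on either side of its centre and coloured as H3K27ac on class u transcripts (dark red), other H3K27ac (light red), H3K27me3 (dark blue), class u loci (green) and annotated genes (blue), plus strand above minus strand. The run on 2L is 79.4% covered by its 6 peaks on class u transcripts and the first run on 2R 60.0% by its 8. In the 3R run of 8 with 30 class u loci H3K27me3 islands lie in the gaps.

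The peaks were spread over all chromosome arms and were most frequent, relative to other H3K27ac peaks, on unplaced sequence. Of the H3K27ac peaks under 6000 bp, they made up 80 of 1046 on 3L (7.65%), 86 of 1286 on 3R (6.69%), 39 of 621 on X (6.28%), 72 of 1449 on 2L (4.97%) and 71 of 1733 on 2R (4.10%). The intervals of 3L (6.19 to 9.42%) and 2R (3.26 to 5.14%) did not overlap, and 3L held 21.5% of class u loci but 16.1% of annotated genes, against 20.5% and 28.3% on 2R. Among the arms, median scores ran from 158 (127 to 220) on 2L to 236 (173 to 314) on 3R, with overlapping intervals. On X they lay nearest to genes, at a median of 2209 bp (1781 to 3974), and on 2R farthest among the arms, at 10566 bp (4756 to 13663).

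On UNKN 27 of 83 such peaks (32.5%, 23.4 to 43.2%) were peaks on class u transcripts. This sequence held 9.77% of class u loci and 4.27% of annotated genes. The 27 were short, with a median of 938 bp (688 to 1348), and lay 21879 bp (12666 to 37846) from a gene. Their median score was 139 (83.1 to 240), against 112 (90.8 to 163) for the other 56 peaks on it. UNKN joins fragments whose order is not known, so distances on it may run across a join.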

How the data were processed

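Each ChIP library and each RNA library was made from pooled tissue, with 1 library per group and no replicate. According to the submitters' processing notes, reads were mapped with Bowtie 1.0.0 (ChIP) and TopHat2 2.0.10 (RNA), peaks were called with MACS 1.4 (H3K27ac) and SICER (H3K27me3), and transcripts were assembled with Cufflinks 2.1.1. The authors deposited a MACS score for each H3K27ac peak, from 50.02 to 3233.06, and a SICER score for each of 12939 H3K27me3 islands, from 39 to 23492. The scores are not on one scale, and each was used only within its own list. The read depth behind each score is not in the files used here, and abundance and the input reads were not used.

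Intervals were overlapped at 1 bp or more with Python 3.11.15, pandas 2.3.3 and numpy 2.4.6 (scipy 1.17.1 for intervals, matplotlib 3.10.9 for plots), by functions tested on simulated data. Shares have Wilson intervals and medians order-statistic intervals at the 95% level. Medians, shares and distances are descriptions with no test, because a group is 1 library. The peaks and lists were chosen with earlier results of these data known. Peaks were named by position where they were the 10 highest in score, among the 5 longest or the 3 next above the length limit, the 5 with most exons, the 3 with most loci, the 5 farthest from a gene or the 5 sharing bases with H3K27me3; the runs of peaks were picked out after their values were seen. Gene names came from the candidate genes of the study alone, since 0 of the annotated genes were found in the RefSeq table used. Base composition and motifs were not analysed here. Alternatives varied the overlap, the score, the gene models and flank, UNKN, splicing and the islands.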

Additional observations from a re-analysis of the deposited data

How the results depend on the processing

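Of 73 alternative values, 51 stayed within the interval of the value reported, or within 1.5 times it for counts, and 22 moved. This tally is not a measure of robustness. Some alternatives kept nearly the same peaks, as with the 366 that touched an exon. Others moved a value by their own definition, as a score cut moves the median score. No paired analysis was possible because each group has 1 library. The alternatives were applied one at a time.

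With peaks of score at or above the median of all H3K27ac peaks, 152 peaks met the rule, with a median score of 502, a median length of 2564 bp, a 5′ end in 87.5%, and an acetylated nearest gene for 67.8%. Peaks of that score touched 7.98% of class u loci. With genes of class "=" alone, 987 peaks met the rule, with a median length of 2147 bp, a 5′ end in 78.1%, an acetylated nearest gene for 84.6% and a median gene distance of 0 bp, since genes kept their full span for that distance. With the 375 peaks kept and the gene span taken from class "=" alone, the median distance was 11272 bp. With spliced class u transcripts alone, 98 peaks met the rule, with a 5′ end in 43.9%, a median gene distance of 9680 bp and an acetylated nearest gene for 54.1%.

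A 5′ end was held by 68.4% of the peaks that lay under class u transcripts for at least 50% of their length, and lay within 200 bp of 81.9% of all 375. With a flank of 1000 bp around genes the median gene distance was 8291 bp. The nearest gene carried H3K27ac at a promoter for 54.1%. Islands at or above their median score lay within 5000 bp of 12.5% of the peaks, and any island within 1000 bp of 5.33%.

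The read depth behind each peak and the spread between animals were not measured and limit all of these values.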

Other observations

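Far from genes, 5 of the peaks stood together on 3L, chosen after their values were seen. They began at 26758175, 26760467, 26770043, 26785092 and 26792794 and had scores of 133, 660, 52.5, 215 and 62.9. The nearest genes, AGAP011528 and AGAP011530, were 69417 to 100244 bp away and carried no H3K27ac. Only the peak at 26760467 had a score above the 244 that is the median of all H3K27ac peaks.

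In 6 of the 375 peaks (1.60%), class u transcripts lay under less than 10% of the peak, so that the overlap which chose them was slight. Among these were the peaks on 3L from 39181143 to 39181855 (score 332, 5.47% under transcripts) and on 2R from 30204345 to 30205717 (score 234, 5.83%).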
